A study of Mus musculus with 3 samples.

Results

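RNA-seq of untreated melan-a cells, an immortalized mouse melanocyte line, was examined for 7 genes. Of these, *Slc24a4* encodes an exchanger of the family of *Slc24a5*, and *Gpr143* (OA1) a receptor that signals from the melanosome membrane. The others encode proteins that move ions across the membranes of melanosomes and related endolysosomes. The genes *Slc45a2*, *Slc24a5*, *Slc24a4*, *Oca2*, *Gpr143*, *Tpcn1* and *Tpcn2* were taken by their symbols in an mm9 annotation, with no threshold on their levels, and all 7 were among the 22698 Ensembl genes of the files. The series holds 1 group of 3 samples, the replicates labelled 1, 3 and 4. The cells are of C57BL/6J background and are labelled as melanocytes from Ink4a-ARF-/- mice. They were grown in RPMI 1640 with 10% fetal bovine serum, 200 nM 12-O-tetradecanoylphorbol 13-acetate (a phorbol ester) and 200 pM cholera toxin, and received no treatment. All 3 replicates thus share 1 line, the deleted locus and both growth supplements, and no comparison between conditions can be made. The series text speaks of bioreplicates without saying how they were separated, so the SD given below is the spread between these 3 samples.

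Melanin is made inside melanosomes, organelles related to lysosomes that are acidic when they first form. Tyrosinase, the rate-limiting enzyme of melanin synthesis, works poorly at acid pH, and ion transport across the melanosome membrane therefore bears on how much pigment a cell makes. The P protein encoded by *Oca2* takes part in a melanosomal chloride current, SLC45A2 is a proton-coupled transporter, and both are linked to a rise in melanosomal pH. SLC24A5 (NCKX5) and SLC24A4 (NCKX4) belong to the potassium-dependent sodium/calcium exchangers. TPC1 and TPC2, encoded by *Tpcn1* and *Tpcn2*, are cation channels of endosomes, lysosomes and, for TPC2, melanosomes. GPR143 is a G protein-coupled receptor of the melanosome membrane whose loss causes ocular albinism with giant melanosomes. Loss of *Oca2*, *Slc45a2* or *Slc24a5* lightens the coat or eyes of mice.

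The authors deposited each level as FPKM (reads per kilobase of gene and per 1000000 reads) after TMM scaling, a correction for library composition. Low values of short genes with 1 annotated transcript fell on whole reads, which gave scaled library sizes of 53800000, 46900000 and 66300000 reads in replicates 1, 3 and 4. Of 12 melanocyte markers, 11 were at or above 1 FPKM in every replicate, beside 44.1% of all genes, led by *Tyrp1* with a mean of 3144 FPKM. The exception was *Kit*, the receptor for stem cell factor, at 0.67, 0.59 and 0.78 FPKM. Markers of the retinal pigment epithelium, the other pigment cell that uses *Oca2* and *Gpr143*, summed to between 1.27 and 1.32 FPKM over 6 genes. *Rlbp1* made up most of this sum with a mean of 1.11 FPKM, and *Rgr* was at 0 in all 3 replicates. The summed level lay between 1.62 and 1.97 FPKM for 7 fibroblast markers (highest *Col1a1*, *Lum* at 0), between 0.380 and 0.720 for 5 keratinocyte markers (highest *Krt10*, *Krt1* at 0) and between 0.760 and 1.60 for 4 leukocyte markers, of which *Cd68* alone was above 0. All 5 Schwann cell markers were at or above 1 FPKM in every replicate. One of them was *S100b*, which melanocytes also express, with a mean of 70.7 FPKM. The part of these markers in the levels below was not tested, and in bulk RNA fewer cells of a type cannot be told apart from less RNA per cell.

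Promoter sequences show what lies next to the start of some of these genes and are given for the members in which a motif of the pigment-cell regulators was matched. The RefSeq promoter table (GRCm38.p6) held 4 of the 7 members, *Slc24a5*, *Slc24a4*, *Oca2* and *Tpcn2*; *Slc45a2*, *Gpr143* and *Tpcn1* had no entry. The 250 bases upstream of the RefSeq start were searched on both strands for CATGTG (the E-box bound by MITF), for TCATGTG (the core of the M-box, which contains CATGTG), for CACGTG (the other E-box of MITF) and for GCCNNNGGC (a TFAP2 site). Capitals mark the matched letters. CATGTG and TCATGTG were read on the strand opposite to the gene and therefore appear as their reverse complement. The *Slc24a5* and *Slc24a4* sequences run to the base before the start. The *Oca2* sequence stops where the RefSeq gene record begins, upstream of the start used by the table.
Slc24a5, chr2:125067877-125068126, plus strand: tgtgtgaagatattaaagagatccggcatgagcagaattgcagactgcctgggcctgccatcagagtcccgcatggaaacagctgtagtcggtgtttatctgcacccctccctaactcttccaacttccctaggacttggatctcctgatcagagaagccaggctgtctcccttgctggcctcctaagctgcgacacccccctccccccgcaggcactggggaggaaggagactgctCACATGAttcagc
Slc24a4, chr12:102128477-102128726, plus strand: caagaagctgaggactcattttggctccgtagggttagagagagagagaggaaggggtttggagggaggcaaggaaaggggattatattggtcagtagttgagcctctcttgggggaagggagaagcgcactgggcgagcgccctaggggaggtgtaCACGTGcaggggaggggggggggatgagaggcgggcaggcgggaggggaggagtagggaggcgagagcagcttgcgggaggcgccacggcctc
Oca2, chr7:56239509-56239592, plus strand: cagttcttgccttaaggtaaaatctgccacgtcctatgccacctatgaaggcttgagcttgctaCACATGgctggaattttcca

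The *Slc24a5* window held TCATGTG, with its letters from 13 to 7 bases upstream of the start. This 7-letter match occurred in 3.25% of the 32851 promoters of the table. CATGTG itself was in 12.3% of promoters. In *Oca2* it lay 186 to 181 bases upstream of the start used by the promoter table, near the end of the printed sequence. *Slc24a4* held CACGTG from 93 to 88 bases upstream, a match found in 6.02% of promoters. None of the 4 windows held GCCNNNGGC, which 13.7% of promoters did, and no motif of the search was matched in *Tpcn2*. The TFAP2A consensus given in the paper, GCCNNNGG, is shorter and was not searched for. It occurs in the printed *Slc24a4* sequence as gccctagg and, on the other strand, in that of *Slc24a5* as ccgcaggc. These are letter matches in a short window, and the RNA-seq does not measure binding.

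Of the 7 genes, 6 were at or above 1 FPKM in every replicate, against 44.1% of all genes. The exception was *Slc24a4*. With a limit of 0.5 FPKM the count stayed at 6, against 47.0% of all genes, and with 5 FPKM it was 5, against 30.8%. The median of the 7 mean levels was 14.5 FPKM, beside 0.28 FPKM over all genes and 11.2 FPKM over the 10011 genes at or above 1 FPKM in every replicate. *Slc45a2*, *Slc24a5* and *Tpcn1* were highest, *Oca2*, *Gpr143* and *Tpcn2* lay in between and *Slc24a4* was far below. The 3 highest genes made up 84.4%, 86.2% and 83.1% of the summed level of the 7 in replicates 1, 3 and 4.

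**Figure D1:**
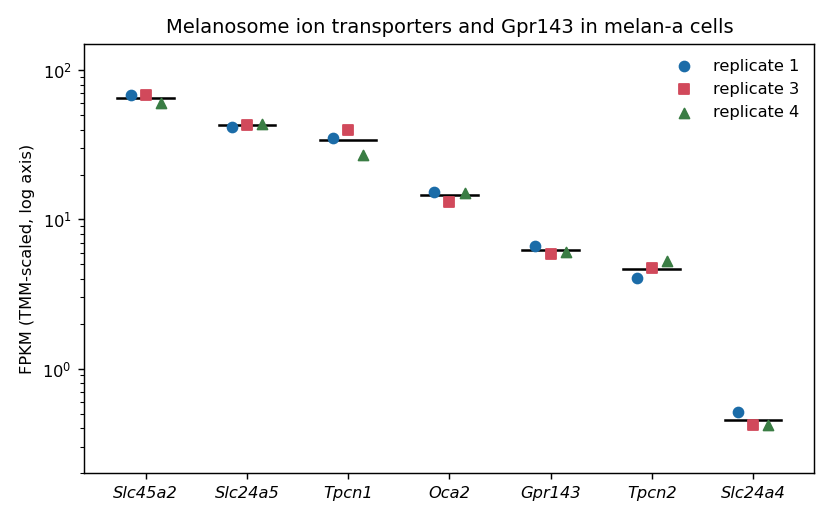
Level of each gene in FPKM on a log axis, ordered by mean; points are the 3 replicates and the black bar is their mean. With the values as deposited *Slc45a2* is highest with 65.5 FPKM (below *Slc24a5* if the exon bases that *Slc24a5* shares with *Myef2* were not counted), *Slc24a4* is lowest with 0.450 FPKM, and no neighbouring genes overlap across replicates.

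*Slc45a2* (ENSMUSG00000022243) is the gene of the proton-coupled melanosomal transporter. In mm9 it spans 10930476 to 10958988 on the plus strand of chromosome 15, with 2 annotated coding transcripts of up to 7 exons. It was measured at 67.78, 68.13 and 60.64 FPKM in replicates 1, 3 and 4 (mean 65.5 ± 4.23, SD, n = 3). Replicates 1 and 3 were nearly equal and replicate 4 was lowest. Its rank was 978, 1021 and 1023 of 22698 in the single replicates. The level rested on about 9532 to 11993 estimated reads per replicate, for which counting alone gives an error of at most 1.02%, less than the coefficient of variation of 6.45%.

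*Slc24a5* (ENSMUSG00000035183), the exchanger gene behind the golden phenotype of zebrafish, spans 124893860 to 124914413 of chromosome 2, plus strand. Its level was 41.35, 43.18 and 43.67 FPKM (mean 42.7 ± 1.22, SD, n = 3). As deposited, it was the least variable of the 7 genes, with a coefficient of variation of 2.86%, which was higher than that of only 8.54% of the 2355 genes with a mean from 0.5 to 2 times its own. This place was not kept when each replicate was rescaled to sum to 1000000, where its coefficient of variation became 6.30% and that of *Slc45a2* 2.90%. Its rank by mean level was 1628. Of the 2330 bases in its joined exons, 921 (39.5%) are shared with exons of *Myef2*, a gene on the opposite strand that runs into it tail to tail. The shared part covers 47.1% of the only coding transcript and 527 of its 1503 coding bases. *Myef2* was at 12.06, 8.54 and 19.03 FPKM, with its lowest value in replicate 3, whereas *Slc24a5* was lowest in replicate 1. The libraries were stranded, but the strand setting of the counting is not given in the sources used here, and the level of *Slc24a5* is uncertain to that extent. If no read of the shared bases had been counted, the same reads over the remaining 1409 bases would give 68.4, 71.4 and 72.2 FPKM (mean 70.7), above *Slc45a2* in all 3 replicates.

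**Figure D2:**
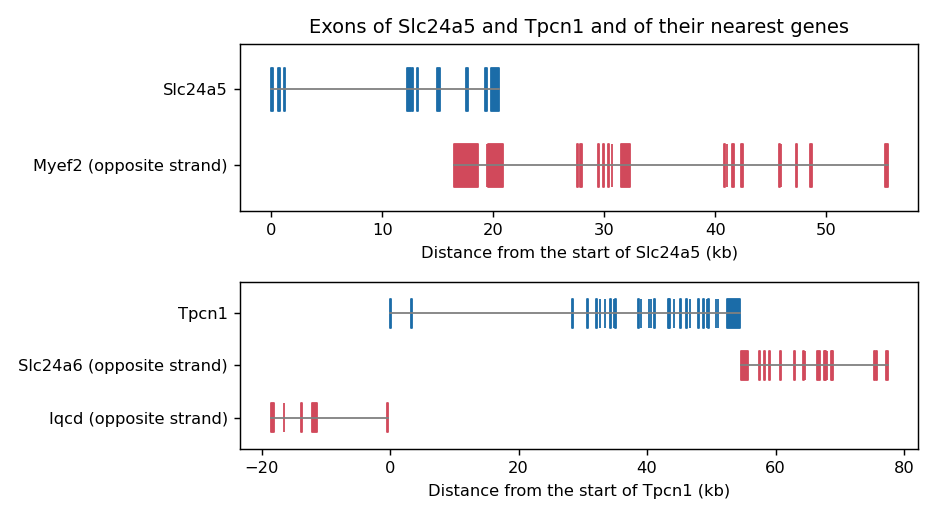
Joined exons of *Slc24a5* and *Myef2* (top) and of *Tpcn1* with both adjacent genes (bottom), by distance in kb from the start of *Slc24a5* or *Tpcn1*. The last exon and 1 internal exon of *Slc24a5* fall within exons of *Myef2*, 921 bases in all, while *Tpcn1* shares 0 exon bases with *Slc24a6* or *Iqcd*.

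*Slc24a4* (ENSMUSG00000041771), the exchanger gene known from olfactory neurons and enamel-forming cells, has 4 coding transcripts on the plus strand of chromosome 12 (103366943 to 103505301). The paper also counts it as implicated in pigmentation and reports that *Tfap2a* knockdown lowered its expression in melan-a cells. In these RNA-seq samples *Slc24a4* was measured at 0.51, 0.42 and 0.42 FPKM (mean 0.450 ± 0.05, SD, n = 3), and 51.7% of all genes had a lower mean. Replicates 3 and 4 were equal and replicate 1 was slightly higher. About 124, 89 and 126 reads stood behind these values, so that the coefficient of variation of 11.5% was close to the largest counting error of 10.6%. Its level nevertheless lay well above the 0.014 FPKM that 3 reads give for this gene in the shallowest library. The ratio of *Slc24a5* to *Slc24a4* within a library was 81.1, 103 and 104.

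*Oca2* (ENSMUSG00000030450), the gene of the P protein, extends over the plus strand of chromosome 7 from 63495130 to 63791887 with 6 annotated transcripts, 2 of them protein-coding. Its level was 15.36, 13.09 and 15.03 FPKM (mean 14.5 ± 1.23, SD, n = 3). Replicate 3 was lowest. *Oca2* ranked 4202 by its mean and rested on about 2431 to 3946 reads per replicate. Against *Slc45a2*, the other gene described above as linked to a rise in melanosomal pH, *Oca2* was lower in 3 of 3 replicates. *Slc45a2* was 4.41, 5.20 and 4.03 times as high.

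*Gpr143* (ENSMUSG00000025333), the receptor gene, is on chromosome X at 149216464 to 149243189 (plus strand). It has 3 annotated transcripts of up to 9 exons, 1 of them protein-coding. Its values were 6.67, 5.91 and 6.02 FPKM (mean 6.20 ± 0.41, SD, n = 3), with replicate 1 the highest. Its rank was 6826, and 69.9% of all genes had a lower mean. With 553 to 796 estimated reads the counting error reached 4.25%, beside a coefficient of variation of 6.62%.

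*Tpcn1* (ENSMUSG00000032741) has a single annotated transcript of 28 exons and 4645 bases on the minus strand of chromosome 5 (120984169 to 121038622). It was measured at 35.05, 39.73 and 27.24 FPKM (mean 34.0 ± 6.31, SD, n = 3). Replicate 3 was highest and replicate 4 lowest, and the coefficient of variation of 18.6% was the largest of the 7 genes as deposited and above that of 82.1% of the 2732 genes of like level. Counting error was at most 1.09%. After rescaling to a common sum the value was 14.1%, and that of *Tpcn2* was then larger at 15.8%.

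*Tpcn2* (ENSMUSG00000048677) lies on the minus strand of chromosome 7 (152439828 to 152469916) with 2 coding transcripts. Its level was 4.08, 4.7 and 5.24 FPKM (mean 4.67 ± 0.58, SD, n = 3), with the highest value in replicate 4, where *Tpcn1* was lowest. *Tpcn1* was therefore 8.59, 8.45 and 5.20 times as high as its paralog in replicates 1, 3 and 4. The direction held in 3 of 3 replicates, while the size of the ratio moved between them. The ranges of the paralogs did not overlap.

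In the order of mean levels as deposited, *Slc45a2* was followed by *Slc24a5*, *Tpcn1*, *Oca2*, *Gpr143*, *Tpcn2* and *Slc24a4*. Each gene exceeded the next one in 3 of 3 replicates, and the ranges of no neighbouring pair overlapped. The step from *Slc24a5* to *Tpcn1* had ratios of 1.18, 1.09 and 1.60 with a mean log2 ratio, taken as log2(FPKM + 0.1), of 0.35 ± 0.29 (SD, n = 3). The step from *Gpr143* to *Tpcn2* was similar in size, with ratios of 1.63, 1.26 and 1.15 (mean log2 ratio 0.41 ± 0.26). From *Slc45a2* to *Slc24a5* the ratios were 1.64, 1.58 and 1.39 (mean log2 ratio 0.61 ± 0.13). The steps from *Tpcn1* to *Oca2* and from *Oca2* to *Gpr143* both had a mean log2 ratio of 1.21, with SDs of 0.37 and 0.09. The last step, from *Tpcn2* to *Slc24a4*, was by far the widest at 3.11 ± 0.30. An exact sign-flip permutation test within libraries (two-sided, n = 3) gave p = 0.25 for each of the 6 steps, raw and after Benjamini-Hochberg adjustment, which is the smallest p that 3 libraries allow. The order was taken from these same values, so neither the test nor the count of replicates is separate support for it. The places of *Slc45a2*, *Slc24a5* and *Tpcn1* depended on the length by which reads are divided. Without the bases shared with *Myef2*, *Slc24a5* stood above *Slc45a2* in 3 of 3 replicates (mean log2 ratio of *Slc45a2* to *Slc24a5* -0.11 ± 0.13). Per kilobase of coding sequence *Slc24a5* and *Tpcn1* came to 66.2 and 64.4, with *Slc24a5* higher in 1 of 3 replicates (mean log2 ratio 0.06 ± 0.30). The 4 steps from *Tpcn1* down to *Slc24a4*, and that from *Slc45a2* to *Slc24a5*, kept their direction in 3 of 3 replicates per kilobase of coding sequence and of the longest transcript.

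**Figure D3:**
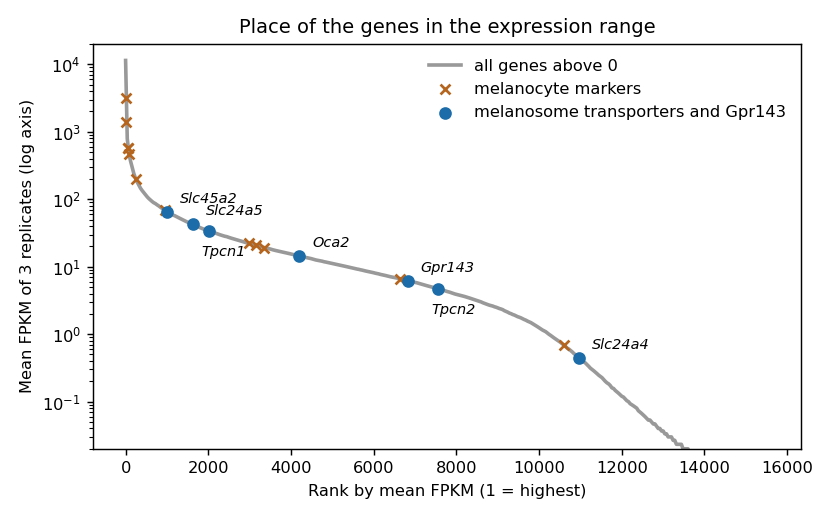
Mean FPKM of 3 replicates (log axis) against rank for all genes above 0 (grey, shown down to 0.02 FPKM), the melanocyte markers (crosses) and the 7 genes (blue). *Slc45a2* stands at rank 1013 next to *Tyr* at rank 943, and *Slc24a4* at rank 10968 near *Kit* at rank 10604.

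The replicate differences of these genes were set beside those of genes with like base composition, because the ratios between libraries moved with GC content. Across 10006 protein-coding genes at or above 1 FPKM in every replicate, Spearman's rho between transcript GC content and the log2 ratio of replicate 4 to replicate 3 was -0.780. These genes share the same pair of libraries and are not independent. *Tpcn1*, with 56.2% GC the highest of the 7, had a log2 ratio of -0.54, and genes within 2 percentage points of its GC content had a median of -0.33 with an SD of 0.26. At the other end *Slc24a5*, with 43.8% GC, had a ratio of 0.02, where genes of like GC content had a median of 0.39 and an SD of 0.37. *Slc45a2* at -0.17 also lay below its like-GC median of 0.09. *Oca2* (0.20 against 0.15) and *Gpr143* (0.03 against 0.00) were close to it, whereas *Tpcn2* at 0.16 lay above its median of -0.20. *Tpcn2* stood out most in the ratio of replicate 4 to replicate 1, which was 0.36 against a like-GC median of -0.10 and above that of 97.9% of the 2175 genes compared. *Slc24a4*, with few reads, had a ratio of replicate 3 to replicate 1 of -0.28 against a like-GC median of 0.06, above that of only 1.77% of 2146 genes. Those genes were all at or above 1 FPKM in every replicate, a limit that *Slc24a4* did not reach. Its place is therefore not one among genes of like level or depth. The part of GC content in these differences was not tested.

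**Figure D4:**
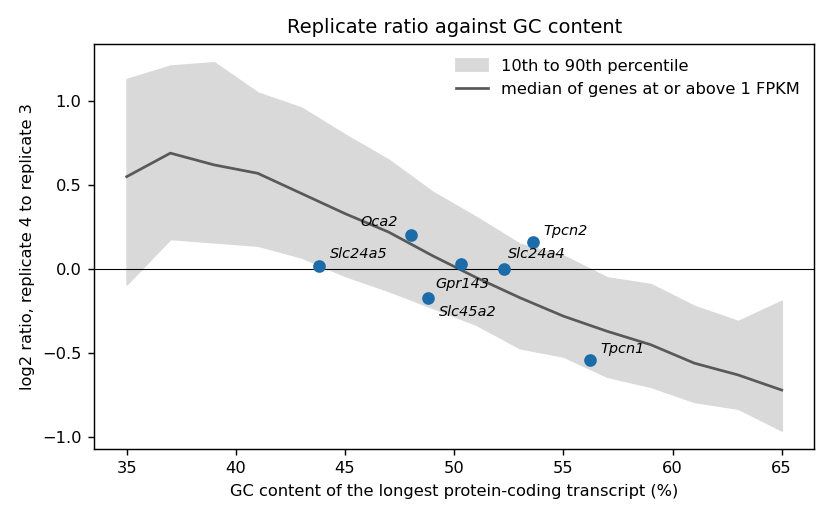
Log2 ratio of replicate 4 to replicate 3 against the GC content (%) of the longest protein-coding transcript; the line is the median and the band the 10th to 90th percentile of genes in bins of 2 percentage points, and blue points are the 7 genes. The median falls with GC content, with *Tpcn1* (-0.54) below the line and *Tpcn2* (0.16) above it.

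Few relatives of these transporters were at or above 1 FPKM in every replicate, beside 44.1% of all genes. Of 7 other sodium/calcium exchangers of the SLC24 and SLC8 families, 1 was at or above 1 FPKM in every replicate, namely *Slc24a6*, the mitochondrial sodium/calcium exchanger, at 6.64, 6.81 and 6.06 FPKM. The other 6 had means up to 0.0567 FPKM, and *Slc24a1* and *Slc24a2* were at 0 in all replicates. *Slc24a5* exceeded *Slc24a6* by 6.23, 6.34 and 7.21 times, and *Slc24a6* in turn exceeded *Slc24a4* by 13.0, 16.2 and 14.4 times. Among the other SLC45 genes, *Slc45a4* was highest at 3.74, 3.99 and 2.77 FPKM, *Slc45a3* had a mean of 0.570 FPKM and *Slc45a1* was at 0. *Slc45a2* was 18.1, 17.1 and 21.9 times as high as *Slc45a4*. The SLC13 genes encode sulfate and dicarboxylate transporters of the same superfamily as the P protein. None of the 5 reached 1 FPKM, the highest being *Slc13a5* (a citrate transporter) with 0.143 ± 0.03 FPKM and *Slc13a1* and *Slc13a2* both at 0 in all replicates.

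Most listed genes of lysosomal ion transport and of NAADP receptor proteins were at or above 1 FPKM in every replicate, beside 44.1% of all genes. All 7 endolysosomal cation channels and NAADP receptor proteins passed 1 FPKM in every replicate, with a median of 21.7 FPKM. The highest was *Mcoln3*, a mucolipin channel, at 90.71, 75.34 and 94.89 FPKM, or 2.59, 1.90 and 3.48 times the level of *Tpcn1*. *Mcoln2* was lowest with 1.28 ± 0.21 FPKM. *Mcoln1*, the main calcium channel of lysosomes, had 29.68, 31.1 and 27.14 FPKM, a range that overlapped that of *Tpcn1*. All 6 genes of the CLC chloride/proton exchangers and their subunit *Ostm1* passed, from *Clcn5* (8.89 ± 0.53 FPKM) to *Clcn7* (23.2 ± 3.10), the exchanger of lysosomes. The proton pump that acidifies melanosomes and lysosomes had the highest median of the 7 pathway lists, with 8 of 10 V-ATPase genes at or above 1 FPKM in every replicate and a median of 48.7 FPKM. Its highest gene was *Atp6ap1*, an accessory subunit, with 162 ± 5.41 FPKM. *Atp6v1b1*, a kidney and inner-ear isoform, was lowest with 0.00667 FPKM.

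For *Gpr143*, the G protein alpha subunits and arrestins to which such receptors couple were listed. Of these, 9 of 11 were at or above 1 FPKM in every replicate, beside 44.1% of all genes, with a median of 20.5 FPKM. *Gnai2* was highest at 570.45, 672.79 and 430.17 FPKM and *Gnai1* lowest, with a value above 0 in replicate 3 alone. *Gnai3*, the inhibitory alpha subunit with which OA1 is linked in melanosome growth, had 26.84, 20.97 and 30.6 FPKM and was 4.02, 3.55 and 5.08 times as high as the receptor gene.

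**Figure D5:**
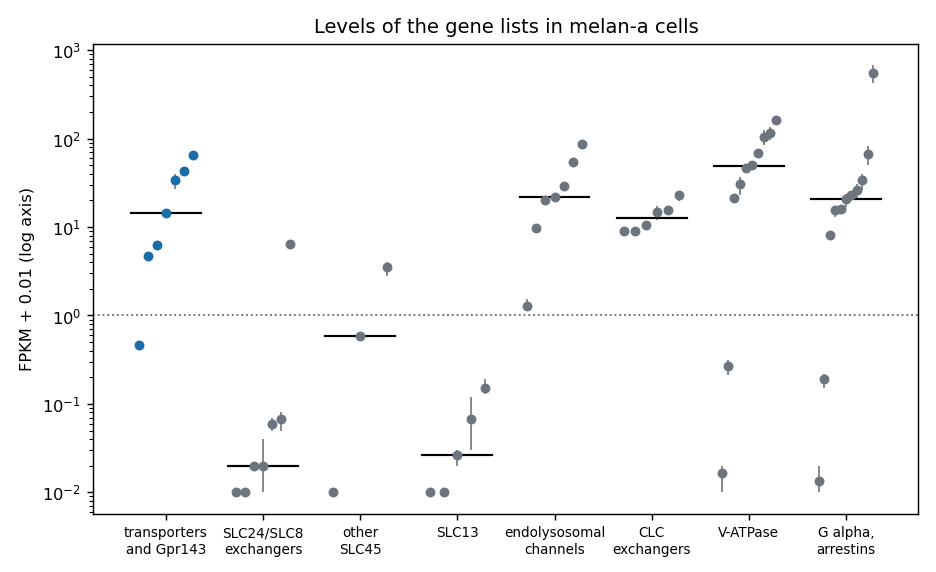
Level of every gene by list as FPKM + 0.01 on a log axis; points are means, grey lines the range of 3 replicates, black bars the list median and the dotted line 1 FPKM. The SLC13 genes lie below the line and the CLC exchangers above it.

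By mean log2(FPKM + 0.1) over the 3 replicates of 1 condition, the listed gene closest in level was *Gna11* for *Slc45a2*, *Atp6v1b2* for *Slc24a5*, *Gna12* for *Tpcn1*, *Ostm1* for *Oca2*, *Slc24a6* for *Gpr143*, *Slc45a4* for *Tpcn2* and *Krt10* for *Slc24a4*. The difference was at most 0.13 except for *Tpcn2*, where it was 0.42. *Gna12* also had its highest value in replicate 3 and its lowest in replicate 4, as *Tpcn1* did, with 37.11, 39.24 and 26.19 FPKM. Other listed genes, *Gna11* and *Gnai2* among them, had the same order of replicates, so it is not particular to this pair. With 1 condition, likeness in level is a description of magnitude only.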

How the data were processed

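Stranded mRNA libraries from 3 replicates of melan-a cells were sequenced on 3 lanes each. The authors trimmed 10 bases per read, aligned to mm9 with STAR 2.3.0e, removed rRNA reads and counted with htseq-count on Ensembl release 67. The deposited values are FPKM, TMM-scaled and rounded to 2 decimals. How counts became FPKM is not given in the sources used here. No comparison columns are present.

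Gene symbols, positions and lengths were read from GENCODE gene models on mm9 (Ensembl 65), where 22324 of the 22698 identifiers were found. Of 96 symbols listed, 95 were found. *Atp6v0a3* was not found under that symbol, which left 10 of the 11 listed V-ATPase genes. Library sizes were those at which FPKM times length fell closest to whole reads, over 136, 135 and 157 genes of up to 500 bases with 1 transcript. The mean distance was 0.044, 0.049 and 0.065 reads, and 3 of 3 simulated sizes were recovered. In genes with several transcripts, joined exons gave smaller distances (0.154, 0.145 and 0.210) than the longest transcript (0.195, 0.233 and 0.224), so read estimates used joined exons. The margin was small in replicate 4, and all these distances exceeded those of genes with 1 transcript. Read estimates of genes with several transcripts are therefore approximate. Counting errors cover sampling only. FPKM are not counts, so no count model was used.

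Named genes were all 7 members, the highest and lowest gene of each pathway list (*Slc24a6* and *Slc24a2*, for example), the highest of each marker list, the listed gene nearest in level, and the adjacent protein-coding genes. Others were chosen after their values were seen. Members and lists were chosen with earlier results of these data known. Alternatives were the median, each replicate left out, values rescaled to sum to 1000000, a filter on genes at 0, pseudocounts of 0.01 and 1, other lengths, and limits of 0.5 and 5 FPKM. Python 3.11.15, numpy 2.4.6, pandas 2.3.3, statsmodels 0.14.6 and matplotlib 3.10.9 were used. The arrays and ChIP-seq of the same study were not analysed here. The levels of some Schwann cell markers are not reported here.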

Additional observations from a re-analysis of the deposited data

How the results depend on the processing

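Rescaling each replicate to sum to 1000000, which changes the unit, gave means of 174 for *Slc45a2*, 113 for *Slc24a5*, 89.7 for *Tpcn1*, 38.5 for *Oca2*, 16.5 for *Gpr143*, 12.4 for *Tpcn2* and 1.19 for *Slc24a4*, with the changes in coefficient of variation given above. A factor per replicate cannot change an order that holds in every replicate, so the same order is no check. The median over replicates and each replicate left out moved no member's level beyond its SD, which holds for any 3 values and is no check. A filter on genes at 0 changed none of the members' ranks. The mean log2 ratio between neighbours in the order changed sign in 1 case, that of *Slc45a2* to *Slc24a5*, to a log2 value of -0.11, when the *Slc24a5* exon bases shared with *Myef2* were left out of its length, an alternative chosen after seeing the overlap. Per coding length the ratio of *Slc24a5* to *Tpcn1* fell below 1 in 2 of 3 replicates (mean log2 value 0.06). Its mean log2 value was 0.18 without replicate 4, and that of *Gpr143* to *Tpcn2* was 0.26 without replicate 1. With pseudocounts of 0.01 and 1 no step changed direction, which none could, because each gene exceeded the next in 3 of 3 replicates. At 0.5 FPKM, 2 other SLC45 genes and 1 leukocyte marker passed. With 5 FPKM required, the counts were 0 for the other SLC45 genes, 0 for retinal pigment epithelium, 0 for fibroblast and 3 for Schwann cell markers. The leukocyte count ranged from 0 to 1 with replicates left out (1 without replicate 3). No paired analysis was possible because the series has 1 group. Depth limits *Slc24a4* most, with 89 estimated reads in replicate 3.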

Other observations

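The nearest protein-coding genes on either side of these 7 had mean levels from 0 to 941 FPKM. *Slc45a2* lies between *Amacr*, a peroxisomal racemase gene 4.10 kb upstream with 3.36 ± 0.10 FPKM (SD, n = 3), and the receptor gene *Rxfp3*, 4.48 kb downstream, at 0.01, 0.02 and 0.01 FPKM. *Oca2* has *Herc2*, a ubiquitin ligase gene on the same strand, 7.96 kb upstream at 8.26, 6.95 and 8.75 FPKM, and *Gabrg3*, a GABA receptor subunit gene, 180 kb downstream at 0 in all replicates. Both *Oca2* and *Herc2* had their lowest value in replicate 3, as did other genes named here, such as *Tyr* and *Gnai3*. *Slc24a4* lies between *Cpsf2* (9.09 ± 0.72 FPKM) and *Rin3* (11.7 ± 2.21 FPKM), and both were above it in every replicate. *Gpr143* has *Shroom2*, an actin-binding gene on the opposite strand, 12.5 kb upstream at 21.5, 19.69 and 22.34 FPKM, and *Usp51* 198 kb downstream with a mean of 0.00667 FPKM.

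*Tpcn1* is closely packed between genes on the opposite strand. *Slc24a6*, the gene of the mitochondrial sodium/calcium exchanger, ends 135 bases from the end of *Tpcn1*. *Iqcd* begins 402 bases from the start of *Tpcn1* and was at 0.23, 0.27 and 0.36 FPKM. *Tpcn2* has *Mrgprf* 16.8 kb upstream with 0.247 ± 0.04 FPKM and *Ccnd1*, the cyclin D1 gene, 314 kb downstream on the same strand at 920.4, 1123.71 and 779.51 FPKM. The protein-coding gene with a value before *Slc24a5* is *Gm17555*, 235 kb away and at 0 in all replicates.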
